A study of Mus musculus with 9 samples.

Results

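Phase II conjugating transferases are the enzymes that join a polar group to drugs, hormones, bile acids and products of lipid peroxidation. Their genes were taken from the platform annotation by symbol, as every single gene symbol beginning with Gsta, Gstk, Gstm, Gsto, Gstp, Gstt, Gstz, Mgst, Ugt or Sult, with a number after Ugt and Sult. The group was picked for description with earlier results of these data known. The symbol rule itself uses no measured value and gave 41 genes of the 15096 genes tested. They comprised 22 glutathione transferases, 7 UDP-glycosyltransferases and 12 sulfotransferases, each measured by 1 probe.

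Glutathione transferases attach the tripeptide glutathione to reactive electrophiles. UDP-glycosyltransferases use an activated sugar, mostly UDP-glucuronate, and sulfotransferases use the activated sulfate PAPS. The liver is the main site of all these reactions, and the conjugates leave the hepatocyte through transporters into bile or blood for excretion by gut and kidney. Many of the genes lie beside their closest relatives as tandem copies.

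Whole liver, kidney and brain RNA of SJL/J males was compared with that of C57BL/6J males on spotted arrays with 2 dyes. Both are inbred strains, the mice were 8 weeks old, and no treatment is given in the labels. Each array set a pool of 5 SJL/J mice, labelled with Alexa Fluor 647, against a pool of 5 C57BL/6J mice, labelled with Alexa Fluor 555. There were 3 arrays per tissue, all of the same pair of pools with the dyes never exchanged, so errors and p-values describe the spread between arrays and not between mice. Values are log ratios, taken as log2 and likely SJL/J over C57BL/6J, so a negative value means a lower level in the SJL/J pool. The basis is that titles name SJL/J first and that red over green dye is the usual ratio. The labels do not state the direction, and with the sign turned every lower below would read higher and every higher lower, with the counts and p-values unchanged. The dye of each strain was fixed, so a gene-specific dye effect cannot be told apart from the strain ratio within a tissue.

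The deposited table holds ratios without intensities. It therefore shows neither how bright a spot was nor how high a gene's level was in a tissue, and the labelled tissues could not be checked against the levels of their markers. Brain replicate 3 stood apart from the other arrays. Over all genes its correlation with the other brain arrays was 0.36 and 0.42, against 0.46 to 0.52 with the kidney arrays, whereas arrays of liver correlated with each other at 0.74 to 0.77 and arrays of kidney at 0.78. Its residual SD was 0.30, against 0.17 to 0.22 on the other arrays. These correlations are over 15096 genes on arrays that share pools, and carry no test.

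In liver, with the ratio taken as SJL/J over C57BL/6J, the SJL/J pool had less RNA of many conjugating transferases than the C57BL/6J pool. Of the 41 genes, 21 were lower, 5 were higher and 15 did not pass the test (adjusted p under 0.05, limma, adjusted over all genes). That is 63.4% of the group, where 24.5% of all genes tested passed in liver (14.4% lower and 10.1% higher). The median log2 ratio of the group was -0.54, against -0.02 over all genes. Differences of at least 1 log2 unit were seen in 11 genes that were lower and 2 that were higher, where 2.13% and 1.38% of all genes reached that size in these directions. Liver replicates 1, 2 and 3 had 31, 32 and 29 of the 41 genes below 0. On all 3 liver arrays 26 genes lay below 0 and 6 above 0, where 32.5% and 27.8% of all genes did. In whole tissue, fewer cells of a type and less RNA per cell cannot be told apart.

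In the other tissues fewer of the genes passed than in liver. In kidney 4 genes were lower, 1 was higher and 36 did not pass, 12.2% of the group, where 27.4% of all genes passed (13.9% lower and 13.5% higher). The kidney median was -0.09, against 0.03 over all genes. In brain 4 genes were lower, 0 were higher and 37 did not pass, 9.76% of the group, where 17.2% of all genes passed (9.61% lower and 7.55% higher). At an unadjusted p under 0.05 again 0 of the 41 were higher in brain, where 16.1% of all genes were. The brain median was -0.03, against 0.01 over all genes. Without brain replicate 3 the lower genes in brain again numbered 4, with Gstm7 no longer passing (adjusted p = 0.0687) and Gstm2 passing (-0.63, adjusted p = 0.0289), and the median of the 41 genes was -0.07. Each of the 5 kidney calls and 4 brain calls was lost under at least 1 alternative setting or with 1 array left out.

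**Figure D1:**
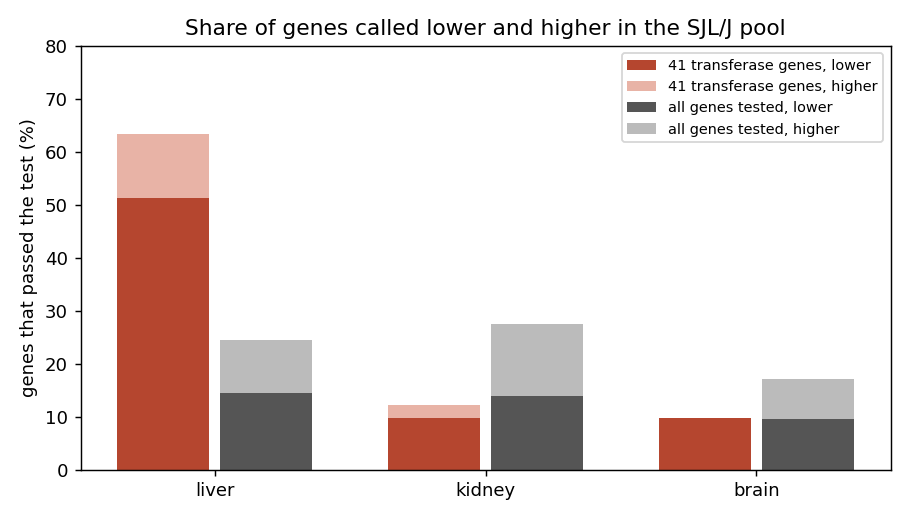
Share of genes that passed the test in each tissue (percent, vertical axis), with the 41 transferase genes beside all 15096 genes tested. Dark parts of the bars are genes lower and pale parts genes higher in the SJL/J pool. The transferases reach 63.4% in liver, of which most is the lower part, against 24.5% of all genes, and lie below all genes in kidney and brain.

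**Figure D2:**
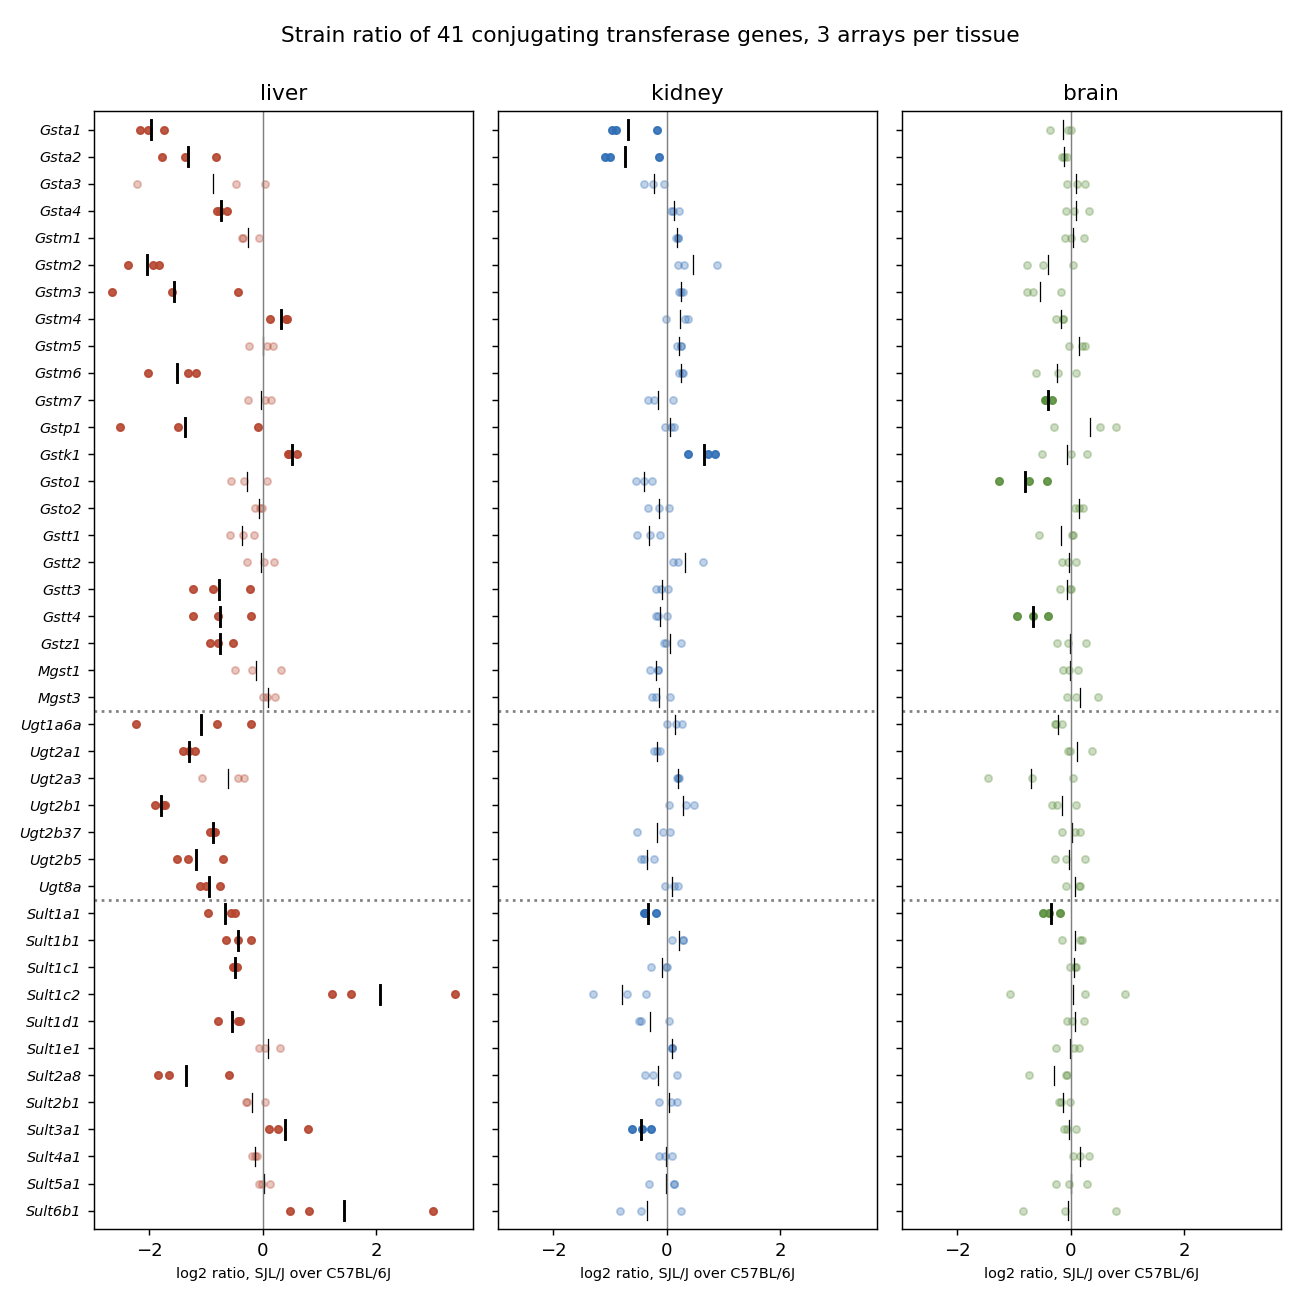
Log2 strain ratio, SJL/J over C57BL/6J (horizontal axis), of each of the 41 genes in liver, kidney and brain, with 1 point per array and a bar at the mean of 3 arrays. Strong colours and thick bars mark genes that passed the test in that tissue, and dotted lines separate glutathione transferases, UDP-glycosyltransferases and sulfotransferases. Most liver points lie left of 0, while Sult1c2 and Sult6b1 lie to the right.

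The 3 classes are given separately for liver. Of the 7 UDP-glycosyltransferases 6 were lower and 0 higher, with a median of -1.08. Of the 22 glutathione transferases 10 were lower and 2 higher, with a median of -0.55. Of the 12 sulfotransferases 5 were lower and 3 higher, with a median of -0.16. The class medians held their order on each liver array, at -1.10, -1.07 and -0.86 for UDP-glycosyltransferases, -0.45, -0.27 and -0.48 for glutathione transferases and -0.15, -0.23 and -0.05 for sulfotransferases. Whether the classes differ from each other was not tested. Means of single genes are given below ± the SD over the 3 arrays of a tissue.

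The 3 liver arrays did not always agree within a gene. In Gsta3, Gstm3, Gstp1, Ugt1a6a, Sult1c2 and Sult6b1 the lowest and the highest liver array lay more than 2 log2 units apart, by 2.26, 2.24, 2.45, 2.04, 2.17 and 2.53. Such a distance was seen in 6 of the 41 genes, against 0.272% of all genes tested. It was seen in 0 of the 41 genes in kidney and in 1, Sult1c2, in brain.

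The alpha class of glutathione transferases, which handles products of lipid peroxidation and many drugs, was lower in 3 of its 4 genes in liver. Gsta1 had log2 ratios of -2.17, -2.02 and -1.74 on the liver arrays, -0.17, -0.89 and -0.97 on the kidney arrays and -0.05, 0.00 and -0.37 on the brain arrays. All of its liver values lay below all of its kidney and brain values, and 2 of the 3 kidney values were low as well. Its liver mean was -1.98 ± 0.22 (SD, n = 3), a level 3.93-fold lower in the SJL/J pool (adjusted p = 5.89e-06), and its kidney mean was -0.67 ± 0.44 (adjusted p = 0.00783). Gsta2, a close relative of Gsta1, had log2 ratios of -1.78, -1.38 and -0.82 on the liver arrays, -0.14, -0.99 and -1.08 on the kidney arrays and -0.15, -0.06 and -0.12 on the brain arrays. These were below 0 on all 9 arrays, and the liver and kidney values overlapped. The means were -1.32 ± 0.48 in liver (adjusted p = 0.000572) and -0.74 ± 0.52 in kidney (adjusted p = 0.0150). Both kidney calls rested on kidney replicates 2 and 3: without replicate 2 the adjusted p was 0.0677 for Gsta1 and 0.109 for Gsta2, and without replicate 3 it was 0.0734 and 0.121. Whether the probes of Gsta1 and Gsta2 share signal was not tested, so their values need not be separate observations.

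Gsta4, which is specialised for 4-hydroxynonenal, was lower in liver by a smaller and more even amount, -0.73 ± 0.09 (adjusted p = 0.000304), with kidney and brain means of 0.14 and 0.10. Gsta3, known in mouse for the conjugation of aflatoxin epoxide, had a liver mean of -0.88 ± 1.18 that did not pass (adjusted p = 0.0558). Its liver arrays gave -2.22, 0.04 and -0.47, so that the low mean came mainly from replicate 1. Without replicate 2 the mean was -1.34 and passed (adjusted p = 0.0162), a value that still rests mainly on replicate 1.

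The sequence just upstream of the alpha gene with the lowest liver ratio is given to show what precedes its start. It is the RefSeq promoter window of Gsta1 at chr9:78230419-78230718 (plus strand, GRCm38.p6), with 250 bases before the start and 50 after it, in lower case because neither of the motifs described further on, the antioxidant response element and the CCAAT box, has its letters in this window.
Gsta1: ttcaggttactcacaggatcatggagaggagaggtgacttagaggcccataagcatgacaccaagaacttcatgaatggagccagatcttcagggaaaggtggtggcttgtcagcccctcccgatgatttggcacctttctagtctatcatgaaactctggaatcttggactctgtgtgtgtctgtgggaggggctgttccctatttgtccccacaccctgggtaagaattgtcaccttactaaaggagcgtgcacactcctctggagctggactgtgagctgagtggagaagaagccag

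The mu class, which conjugates epoxides and quinones, was divided. Of its 7 genes, 3 were lower in liver, 1 was higher and 3 did not pass. Gstm2 had log2 ratios of -1.93, -2.37 and -1.83 on the liver arrays, 0.88, 0.31 and 0.21 on the kidney arrays and -0.76, -0.49 and 0.03 on the brain arrays. Every liver value was low, while every kidney value lay above 0, and the groups did not overlap. Its liver mean of -2.04 ± 0.28 was the lowest of the 41 genes, a level 4.12-fold lower in the SJL/J pool (adjusted p = 1.06e-05). Gstm6 had log2 ratios of -1.32, -2.03 and -1.18 on the liver arrays, 0.29, 0.27 and 0.22 on the kidney arrays and -0.61, -0.21 and 0.10 on the brain arrays. Again all liver values lay below all others, with a mean of -1.51 ± 0.46 (adjusted p = 7.67e-05).

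Gstm3 had log2 ratios of -2.67, -0.43 and -1.60 on the liver arrays, 0.23, 0.25 and 0.29 on the kidney arrays and -0.67, -0.76 and -0.16 on the brain arrays. Its kidney values were tightly grouped above 0, and liver replicate 2 fell within the range of the brain arrays. The liver mean was -1.56 ± 1.12 (adjusted p = 0.00317). Gstm4 was slightly higher in liver, 0.32 ± 0.17 (adjusted p = 0.0386), a call that was lost without liver replicate 1 (adjusted p = 0.181) or 2 (adjusted p = 0.181). Gstm1, a main cytosolic transferase of mouse liver, had a liver mean of -0.26 ± 0.17 that did not pass (adjusted p = 0.0770). Gstm5 and Gstm7 had liver means of 0.01 and -0.02, and Gstm7 was lower in brain, at -0.41 ± 0.07 (adjusted p = 0.0284), a call that any left-out brain array ended.

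In the gene order of GRCm38.p6 the 7 mu genes stand side by side with 0 other protein-coding genes between them, in the order Gstm5, Gstm7, Gstm6, Gstm3, Gstm2, Gstm1, Gstm4. Along that row the liver means were 0.01, -0.02, -1.51, -1.56, -2.04, -0.26 and 0.32. The 3 lower genes are thus adjacent, between Gstm7 and Gstm1, which did not pass in liver. Gstm1 passed as lower for liver minus kidney (-0.44, adjusted p = 0.0441), a call lost with 6 of the 9 arrays left out in turn. With line and column medians removed its difference was -0.04 and did not pass (adjusted p = 0.847). The other spots of its line on the array, a run of consecutive probe numbers, had medians of 0.36 in kidney and -0.03 in liver. The kidney mean of Gstm1 itself was 0.19. In kidney Gstm6, Gstm3 and Gstm2 had means of 0.26, 0.26 and 0.47, none of which passed. The probe sequences were not used here, so signal from a near-identical neighbour cannot be told apart from a gene's own.

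**Figure D3:**
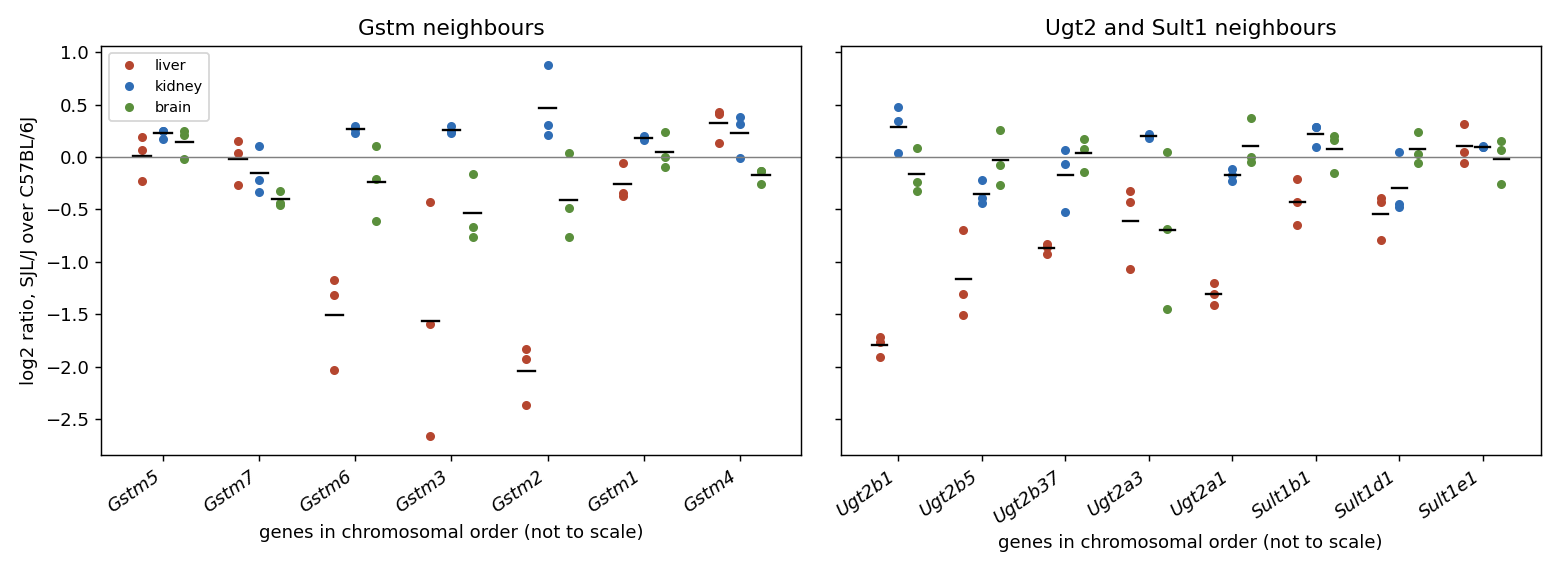
Log2 strain ratio (vertical axis) of neighbouring genes in chromosomal order, not to scale, with 1 point per array and a bar at the mean of each tissue. In the left panel Gstm6, Gstm3 and Gstm2 have low liver means between Gstm7 and Gstm1, which did not pass in liver. In the right panel 6 of the 8 genes of the Ugt2 and Sult1 row were lower in liver. Kidney and brain means of the mu row lie between -0.53 and 0.47.

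Windows of 3 genes of the mu row are shown for comparison, because they lie in 1 row of mu genes and had liver ratios of different size. They are Gstm7 at chr3:107931565-107931864, Gstm3 at chr3:107969125-107969424 and Gstm2 at chr3:107986371-107986670, all on the minus strand of GRCm38.p6 and from RefSeq, written 5′ to 3′ along the gene. Capitals mark the antioxidant response element and the CCAAT box in either orientation. The Gstm7 window shown holds TGACAAAGC at position -129 from its start and 2 CCAAT boxes. The Gstm2 window holds 2 CCAAT boxes, and the Gstm3 window holds neither motif. Gstm7 has another window, at chr3:107931768-107932067, which holds 2 CCAAT boxes but no antioxidant response element.
Gstm7: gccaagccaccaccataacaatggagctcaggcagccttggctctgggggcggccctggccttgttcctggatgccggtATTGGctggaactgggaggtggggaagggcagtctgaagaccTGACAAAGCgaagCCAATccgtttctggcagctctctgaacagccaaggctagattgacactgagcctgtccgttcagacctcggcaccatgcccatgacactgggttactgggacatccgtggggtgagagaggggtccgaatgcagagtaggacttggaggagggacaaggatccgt
Gstm3: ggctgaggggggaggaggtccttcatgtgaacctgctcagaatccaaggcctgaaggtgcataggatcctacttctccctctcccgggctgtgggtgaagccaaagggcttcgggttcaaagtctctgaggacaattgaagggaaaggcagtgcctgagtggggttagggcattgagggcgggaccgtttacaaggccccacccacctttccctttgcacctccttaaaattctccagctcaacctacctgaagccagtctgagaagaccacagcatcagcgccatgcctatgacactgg
Gstm2: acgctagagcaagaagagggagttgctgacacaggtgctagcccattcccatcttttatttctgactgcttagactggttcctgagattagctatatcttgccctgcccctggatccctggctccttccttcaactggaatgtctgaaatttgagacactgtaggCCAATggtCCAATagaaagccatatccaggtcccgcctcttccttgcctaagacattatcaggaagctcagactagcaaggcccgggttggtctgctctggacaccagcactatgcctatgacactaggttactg

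Promoter windows were found for 38 of the 41 genes, 50 windows in all because 11 genes have more than 1. The antioxidant response element, through which NRF2 acts, was searched as TGACNNNGC on both strands. It was in 4 of the 50 windows (8%), where 12.4% of all 32851 windows of this length hold it. The 4 are windows of Gsta3, Gstm5, Gstm7 and Mgst1, of which Gstm7 and Mgst1 also have a window without it. None of these 4 genes passed the test in liver, and 0 of the 26 windows of genes lower in liver hold the letters. The CCAAT box, searched as CCAAT on both strands, was in 27 of 50 windows (54%) and in 14 of the 26 windows of genes lower in liver (53.8%), against 37.4% of all windows. The core of the aryl hydrocarbon receptor element, TNGCGTG, was in 2 windows (4%), against 5.07% of all, and both were among the 26 windows of genes lower in liver (7.69%). The STAT element TTCNNNGAA was in 5 windows (10%) and in 3 of those 26 (11.5%), against 8.3% of all. The HNF1 element and the direct repeat with 1 base between its copies, to which PPAR alpha binds, were in 0 of the 50, against 0.00913% and 0.0396% of all windows. All motifs were searched on both strands, and no antioxidant response element in these windows overlapped a CCAAT box. The reference is the C57BL/6J genome, the SJL/J sequence was not used here, and absence of letters from 300 bases says nothing about a factor's binding.

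The pi class gene Gstp1, which is much higher in male than in female mouse liver, had log2 ratios of -2.52, -0.07 and -1.50 on the liver arrays, 0.12, -0.02 and 0.07 on the kidney arrays and 0.51, -0.29 and 0.81 on the brain arrays. Liver replicates 1 and 3 were low and replicate 2 was near 0. The liver mean was -1.37 ± 1.23 (adjusted p = 0.0137), and the call was lost without liver replicate 1 (-0.79, adjusted p = 0.119) or 3 (-1.30, adjusted p = 0.0760). Gstk1, the kappa class enzyme of mitochondria and peroxisomes, had log2 ratios of 0.61, 0.45 and 0.47 on the liver arrays, 0.38, 0.73 and 0.85 on the kidney arrays and 0.02, -0.50 and 0.29 on the brain arrays. It was the single glutathione transferase that was higher in both liver and kidney, with means of 0.51 ± 0.08 (adjusted p = 0.0207) and 0.65 ± 0.24 (adjusted p = 0.00602). The liver call was lost with any 1 liver array left out (adjusted p = 0.0677 to 0.114), and the kidney call without kidney replicate 3 (adjusted p = 0.0547). The other spots of its line on the array, 24 consecutive probe numbers, also had a high liver median of 0.42, and with line and column medians removed the liver ratio was 0.10 (adjusted p = 0.630) and the kidney ratio 0.61 (adjusted p = 0.00956).

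The omega class reduces dehydroascorbate and arsenicals. Gsto1 had log2 ratios of -0.55, 0.08 and -0.34 on the liver arrays, -0.27, -0.41 and -0.54 on the kidney arrays and -0.42, -0.73 and -1.27 on the brain arrays. Its brain mean was the lowest of the 3 tissues, with overlapping values, -0.81 ± 0.43 (adjusted p = 0.00601), the largest brain difference among the 41 genes, and brain replicate 3 had the most negative value. With the brain arrays fitted alone this call was lost (adjusted p = 0.0644). Gsto2, its neighbour, had log2 ratios of -0.05, -0.13 and -0.02 on the liver arrays, 0.05, -0.13 and -0.32 on the kidney arrays and 0.15, 0.08 and 0.21 on the brain arrays, and passed in no tissue.

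Among the theta class, which acts on haloalkanes and other small electrophiles, 2 of 4 genes were lower in liver. Gstt3 had log2 ratios of -0.22, -1.24 and -0.87 on the liver arrays, 0.03, -0.19 and -0.10 on the kidney arrays and 0.01, -0.19 and -0.00 on the brain arrays. All liver values were below the others, by little on replicate 1, and the mean was -0.77 ± 0.51 (adjusted p = 0.00404). Gstt4 had log2 ratios of -0.79, -0.21 and -1.24 on the liver arrays, -0.18, 0.01 and -0.16 on the kidney arrays and -0.94, -0.67 and -0.40 on the brain arrays. It was lower in liver, -0.75 ± 0.51 (adjusted p = 0.00728), and in brain, -0.67 ± 0.27 (adjusted p = 0.0182), and its liver call was lost without liver replicate 3 (adjusted p = 0.0685). The brain call was lost without brain replicate 1 (adjusted p = 0.112) or 2 (adjusted p = 0.0873). The neighbours Gstt1 and Gstt2 had liver means of -0.36 and -0.02 and did not pass.

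Gstz1, the zeta class enzyme that isomerises maleylacetoacetate in tyrosine breakdown, had log2 ratios of -0.78, -0.53 and -0.93 on the liver arrays, 0.26, -0.01 and -0.05 on the kidney arrays and -0.04, -0.23 and 0.27 on the brain arrays. The liver values were all below the kidney and brain values, with a mean of -0.75 ± 0.20 (adjusted p = 0.00107). The microsomal enzymes, which sit in membranes and belong to another protein family, showed values on both sides of 0. Mgst1 had log2 ratios of -0.19, 0.32 and -0.49 on the liver arrays, -0.29, -0.15 and -0.14 on the kidney arrays and -0.13, -0.03 and 0.13 on the brain arrays. Mgst3 had log2 ratios of 0.07, 0.21 and 0.01 on the liver arrays, 0.05, -0.25 and -0.19 on the kidney arrays and 0.09, -0.06 and 0.48 on the brain arrays. Neither passed in any tissue.

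The UDP-glycosyltransferases had values below 0 on all liver arrays for all 7 genes. Ugt2b1, which glucuronidates steroids and drugs, had log2 ratios of -1.91, -1.76 and -1.72 on the liver arrays, 0.03, 0.48 and 0.34 on the kidney arrays and 0.09, -0.23 and -0.33 on the brain arrays. The liver arrays were close together and far below the other tissues, and the mean of -1.80 ± 0.10 was a level 3.47-fold lower in the SJL/J pool (adjusted p = 1.15e-06), the smallest adjusted p of the group. Ugt2a1, known from the olfactory epithelium, had log2 ratios of -1.31, -1.41 and -1.20 on the liver arrays, -0.11, -0.17 and -0.23 on the kidney arrays and -0.04, -0.00 and 0.37 on the brain arrays. Its liver values were as even, with a mean of -1.30 ± 0.11 (adjusted p = 5.85e-06). The level behind this ratio is unknown, as for every gene here.

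Ugt2b5 had log2 ratios of -1.50, -0.69 and -1.31 on the liver arrays, -0.40, -0.22 and -0.44 on the kidney arrays and -0.27, -0.08 and 0.26 on the brain arrays. The liver values lay below all others, with a mean of -1.17 ± 0.42 (adjusted p = 0.000241). Ugt2b37 had a liver mean of -0.87 ± 0.05 (adjusted p = 0.000330), with all liver arrays below the other tissues. Ugt2a3 had a liver mean of -0.61 ± 0.40 and a brain mean of -0.70 ± 0.75, and neither passed (adjusted p = 0.0675 and adjusted p = 0.0520). Without brain replicate 3 the liver value of Ugt2a3 passed (adjusted p = 0.0141).

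Ugt1a6a, an enzyme of planar phenols whose gene shares its last exons with the other Ugt1a genes, had log2 ratios of -0.20, -2.24 and -0.81 on the liver arrays, 0.16, 0.01 and 0.27 on the kidney arrays and -0.26, -0.16 and -0.27 on the brain arrays. The low mean came mainly from liver replicate 2, and it passed with a large SD, -1.08 ± 1.05 (adjusted p = 0.0137). Fitted on the liver arrays alone it did not pass (adjusted p = 0.0583). Ugt8a, which transfers galactose to ceramide for the myelin lipids, had log2 ratios of -1.10, -0.99 and -0.75 on the liver arrays, -0.02, 0.13 and 0.20 on the kidney arrays and -0.08, 0.15 and 0.17 on the brain arrays. It was lower in liver, -0.94 ± 0.18 (adjusted p = 6.24e-05), and near 0 in brain, where the enzyme is best known.

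The genes Ugt2b1, Ugt2b5, Ugt2b37, Ugt2a3, Ugt2a1, Sult1b1, Sult1d1 and Sult1e1 follow each other on the chromosome with at most 2 other protein-coding genes between neighbours, and 6 of these 8 were lower in liver. Their liver means along the row were -1.80, -1.17, -0.87, -0.61, -1.30, -0.43, -0.54 and 0.10. Here too, signal from a near-identical neighbour cannot be told apart from a gene's own. The window before the gene with the lowest ratio of this row is shown beside those of the mu genes. It is the RefSeq window of Ugt2b1 at chr5:86926454-86926753 (minus strand, GRCm38.p6), which holds neither motif, so no letter is in capitals, and has a G and C content of 32% against 50% for Gstm2.
Ugt2b1: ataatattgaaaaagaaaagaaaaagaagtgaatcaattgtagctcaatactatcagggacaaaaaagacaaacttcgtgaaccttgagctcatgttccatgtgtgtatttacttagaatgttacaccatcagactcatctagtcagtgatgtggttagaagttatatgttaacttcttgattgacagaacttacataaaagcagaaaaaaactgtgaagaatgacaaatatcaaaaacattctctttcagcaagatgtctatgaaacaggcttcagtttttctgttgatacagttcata

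The sulfotransferases moved in both directions in liver. Sult1c2, of the SULT1C enzymes that act on phenols and xenobiotic hydroxylamines, had log2 ratios of 1.23, 1.56 and 3.40 on the liver arrays, -1.30, -0.37 and -0.71 on the kidney arrays and 0.97, 0.25 and -1.07 on the brain arrays. All liver values lay above all others, all kidney values were below 0, and the brain arrays spanned both signs. The liver mean of 2.06 ± 1.17 was the highest of the 41 genes, a level 4.18-fold higher in the SJL/J pool (adjusted p = 0.00404), and liver replicate 3 was more than 1 log2 unit above the other arrays. Sult1c1, the adjacent gene, was lower by an even amount, -0.49 ± 0.04 (adjusted p = 0.00239). Sult6b1 had log2 ratios of 0.48, 0.83 and 3.01 on the liver arrays, -0.45, 0.25 and -0.82 on the kidney arrays and 0.80, -0.10 and -0.84 on the brain arrays. Like Sult1c2 it was highest on liver replicate 3, with a mean of 1.44 ± 1.37 (adjusted p = 0.0277), and without that array the mean was 0.65 and did not pass (adjusted p = 0.219).

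Sult2a8, which sulfates bile acids in mouse liver, had log2 ratios of -1.64, -1.84 and -0.60 on the liver arrays, 0.18, -0.24 and -0.38 on the kidney arrays and -0.07, -0.06 and -0.73 on the brain arrays. Liver replicates 1 and 2 were low and replicate 3 less so, with a mean of -1.36 ± 0.67 (adjusted p = 0.00111). Sult2b1, a cholesterol sulfotransferase best known from skin, had log2 ratios of -0.30, -0.27 and 0.03 on the liver arrays, 0.08, -0.14 and 0.19 on the kidney arrays and -0.17, -0.21 and -0.00 on the brain arrays, and passed in no tissue. Sult1a1, the main phenol sulfotransferase, had log2 ratios of -0.96, -0.56 and -0.49 on the liver arrays, -0.19, -0.40 and -0.38 on the kidney arrays and -0.48, -0.38 and -0.19 on the brain arrays. It was below 0 on all 9 arrays, as Gsta2 was, and was lower in liver, -0.67 ± 0.26 (adjusted p = 0.00130), in kidney, -0.32 ± 0.12 (adjusted p = 0.0490), and in brain, -0.35 ± 0.15 (adjusted p = 0.0466). The kidney call was lost with any 1 kidney array left out (adjusted p = 0.0882 to 0.208), and the brain call without brain replicate 1 (adjusted p = 0.191) or 2 (adjusted p = 0.172). Both calls were lost with 7 of the 9 arrays left out in turn, and in 3 (kidney) and 4 (brain) of 9 other settings. Other spots of its line had a liver median of -0.37, and with line and column medians removed the liver ratio was -0.25 (adjusted p = 0.129).

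Sult1b1, which sulfates thyroid hormones, and Sult1d1, which acts on catecholamines, were lower in liver by small amounts, -0.43 ± 0.22 (adjusted p = 0.0144) and -0.54 ± 0.22 (adjusted p = 0.00908). Both calls were lost without liver replicate 2 (adjusted p = 0.0627 and 0.0789), that of Sult1b1 also without liver replicate 3 (adjusted p = 0.120). With line and column medians removed the liver ratio of Sult1d1 was -0.36 and narrowly failed to pass. Sult3a1, a sulfotransferase of amines, had log2 ratios of 0.26, 0.80 and 0.12 on the liver arrays, -0.28, -0.44 and -0.61 on the kidney arrays and -0.07, -0.11 and 0.10 on the brain arrays. Its liver and kidney values did not overlap, and it was higher in liver, 0.39 ± 0.36 (adjusted p = 0.0415), and lower in kidney, -0.44 ± 0.16 (adjusted p = 0.0232). The liver call was lost with 7 of the 9 arrays left out in turn, with the highest adjusted p without liver replicate 2 (0.19, adjusted p = 0.306), and with the liver arrays fitted alone (adjusted p = 0.0837) or the replicate number as a block (adjusted p = 0.0564). The kidney call was lost with any 1 kidney array left out.

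Sult1e1, the estrogen sulfotransferase, had means of 0.10 in liver, 0.09 in kidney and -0.02 in brain, and did not pass. Sult4a1, a conserved brain enzyme without a known substrate, had log2 ratios of -0.10, -0.18 and -0.13 on the liver arrays, -0.13, 0.10 and -0.02 on the kidney arrays and 0.03, 0.33 and 0.16 on the brain arrays. Sult5a1 had log2 ratios of -0.01, -0.05 and 0.12 on the liver arrays, -0.31, 0.13 and 0.13 on the kidney arrays and 0.30, -0.25 and -0.03 on the brain arrays. Neither passed in any tissue, and their values lay within 0.33 of 0.

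The liver ratios were then set against those of the other tissues, which tests whether a strain difference depends on the tissue and cancels a dye or probe effect that is the same in both. For liver minus kidney, 17 of the 41 genes were lower, 2 were higher and 22 did not pass, so that 19 were called (46.3%), where 19.5% of all genes were (11.0% lower and 8.52% higher). The median difference was -0.44, against -0.03 over all genes. For liver minus brain, 15 were lower, 2 were higher and 24 did not pass, where 11.6% of all genes were called (6.00% lower and 5.61% higher), with a median of -0.32 against -0.03. For brain minus kidney, 0 genes passed with the same limma fit, where 5.47% of all genes did (2.97% lower and 2.50% higher). An unadjusted p under 0.05 was reached by 7 genes that were lower and 3 that were higher, where 12.9% and 11.9% of all genes reached it in these directions. With array weights 3 genes passed as lower and 0 as higher, where 8.71% and 8.55% of all genes did. Liver and its difference from either tissue share the liver arrays, so these are not independent counts. By the moderated F-test over the 3 tissues, 20 genes depended on tissue, where 22.1% of all genes did. A ratio shared by the 3 tissues was called for 0 genes, where 0.709% of all genes had one, and 7 of the 41 had an unadjusted p under 0.05, where 15.9% of all genes did.

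The largest differences between liver and kidney were those of Sult1c2 at 2.86 ± 0.57 (SE) (adjusted p = 0.00706), Gstm2 at -2.51 ± 0.24 (SE) (adjusted p = 7.90e-05) and Ugt2b1 at -2.08 ± 0.16 (SE) (adjusted p = 1.32e-05). Gsta1 differed by -1.30 ± 0.21 (SE) from kidney (adjusted p = 0.00241) and by -1.84 ± 0.21 (SE) from brain (adjusted p = 0.000340), so that it was lower in liver and kidney and lower still in liver. Gsta2 passed against brain, -1.21 ± 0.27 (SE) (adjusted p = 0.0155), but not against kidney, -0.58 ± 0.27 (SE) (adjusted p = 0.145). Gstk1, Gstt4 and Sult1a1, which were called with 1 sign in more than 1 tissue, passed in neither difference in the fit of all arrays. Gstt4 passed for liver minus kidney with array weights (-0.71, adjusted p = 0.0202) and without liver replicate 2 (-0.90, adjusted p = 0.0167). Without brain replicate 3, Gstk1 passed for liver minus brain (0.75, adjusted p = 0.0246), as it did with array weights (0.77, adjusted p = 0.0229). All liver values lay below all kidney values in 21 of the 41 genes, where 25.3% of all genes showed this, and above them in 3, where 21.4% did. They lay below all brain values in 18 genes, where 16.2% of all genes did, and above them in 5, where 14.1% did.

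**Figure D4:**
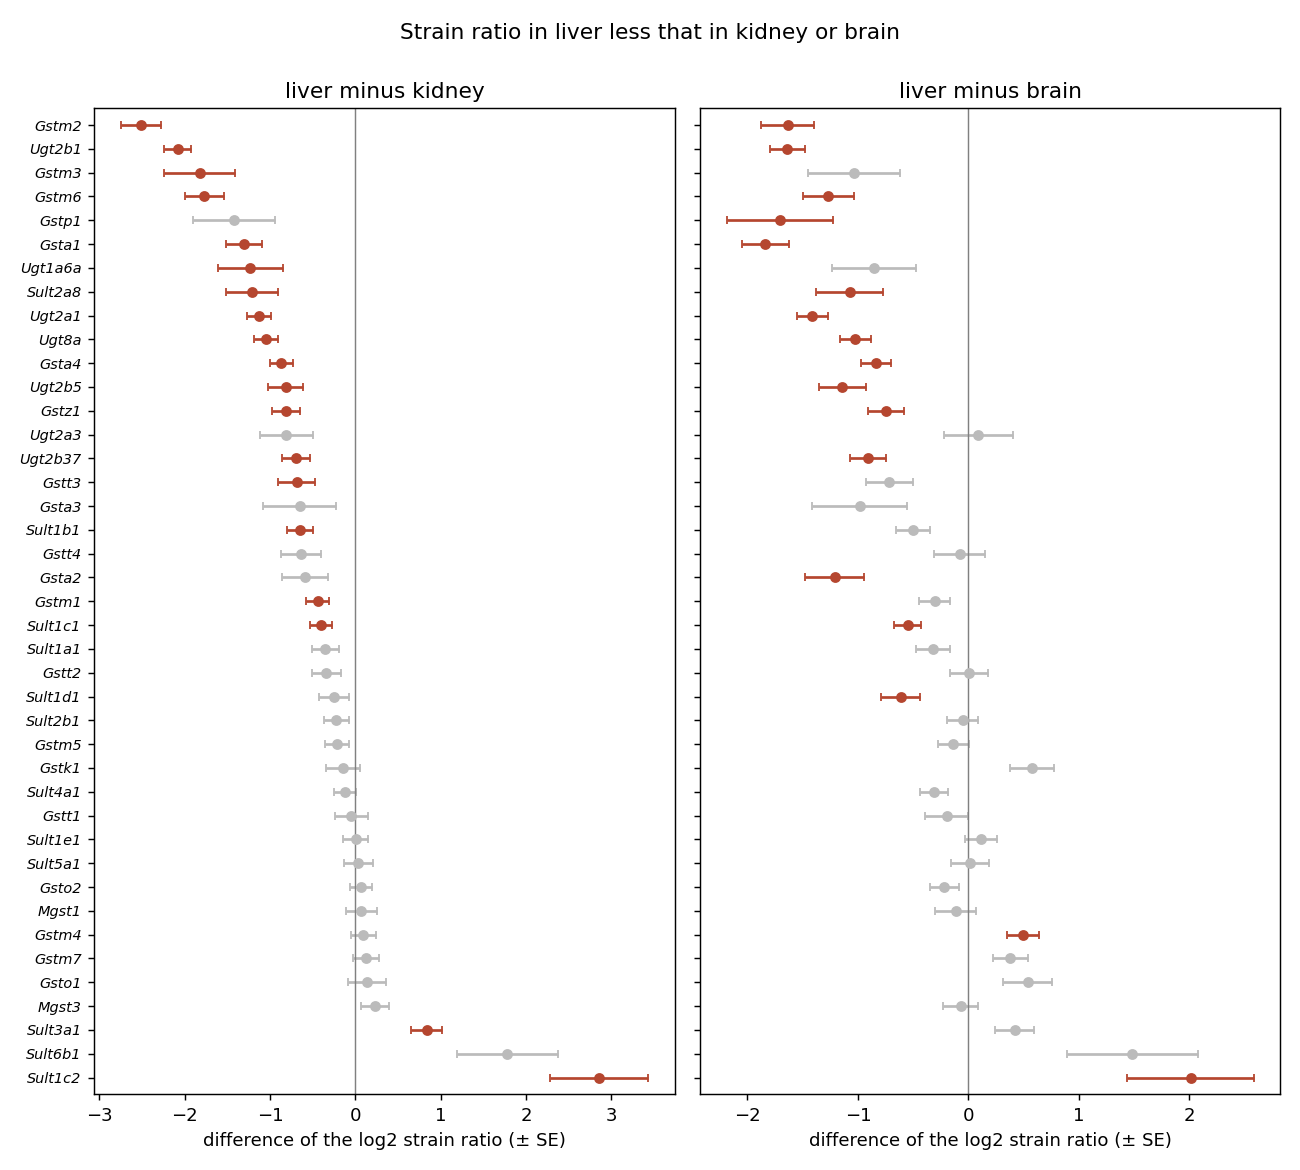
Difference of the log2 strain ratio between liver and kidney (left) and between liver and brain (right) for the 41 genes, in the order of the difference from kidney, with the SE of the fit as bars. Coloured points passed the test and grey points did not. In both panels most coloured points lie left of 0, and Sult1c2 lies farthest to the right.

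Other genes of the same pathways were read from lists of donors, salvage enzymes, exporters and regulators. In liver, where 24.5% of all genes passed, the 11 measured genes of glutathione supply had 3 lower and 0 higher with a median of -0.32, and Gclc, the catalytic subunit of the rate-limiting enzyme of glutathione synthesis, had -0.96 ± 0.63 (adjusted p = 0.00245). Of 10 genes of the mercapturate pathway, which trims glutathione conjugates, 5 were lower and 1 higher, with a median of -0.24. Of 5 genes of UDP-glucuronate supply 2 were lower and 0 higher, with a median of -0.38. Ugdh, which makes UDP-glucuronate and was picked out after its values were seen, had a ratio of 0.15 in liver but -1.62 in kidney and -0.70 in brain, on a spot whose probe number is a multiple of 8. Over all such spots the median ratio was -0.19 in liver, -0.36 in kidney and -0.17 in brain, against 0.03, 0.06 and 0.03 over the other spots, and the part of this in the ratios of Ugdh was not tested. Of 6 genes of PAPS and sulfate supply 1 was lower and 1 higher, with a median of -0.08, and the lower gene was Slc13a1, a sodium-sulfate cotransporter, at -1.09 ± 0.34.

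Of 17 other conjugating enzymes 8 were lower and 0 higher in liver, with a median of -0.28. Among them Inmt, an indole N-methyltransferase, had -1.75 ± 0.69 and As3mt, the arsenite methyltransferase, -1.16 ± 0.36. Of 7 transporters that export conjugates 4 were lower and 0 higher, with a median of -0.56, led by Abcc3, which carries glucuronides to the blood, at -1.85 ± 0.13, also at a multiple of 8. For liver minus kidney 2 of the 7 were lower and 1 higher (median -0.06), where 19.5% of all genes were called. For liver minus brain 1 was lower and 2 higher (median 0.01), where 11.6% of all genes were called. Of 18 regulators 5 were lower and 2 higher in liver, with a median of -0.17 and a highest value of 0.48 for Esr1. For liver minus kidney 6 of them were lower and 1 higher (median 0.09). For liver minus brain 5 were lower and 0 higher (median 0.02). In liver Ppara, the receptor of fatty acids and fibrates, had -1.43 ± 0.25 and Nr1i3, the constitutive androstane receptor of drug metabolism, -1.20 ± 0.53. Nfe2l2, which encodes NRF2, had -0.57 ± 0.40 and Ahr, the aryl hydrocarbon receptor, -0.63 ± 0.17, and both passed (adjusted p = 0.0136 and 0.00889). Gclc, Nfe2l2 and Ahr, below 1 log2 unit, were picked out after their values were seen. Relatives by fold outside the group, such as chloride channels and prostaglandin synthases of the glutathione transferase and MAPEG folds, numbered 13, of which 0 passed as lower and 1 as higher, with a median of 0.03.

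**Figure D5:**
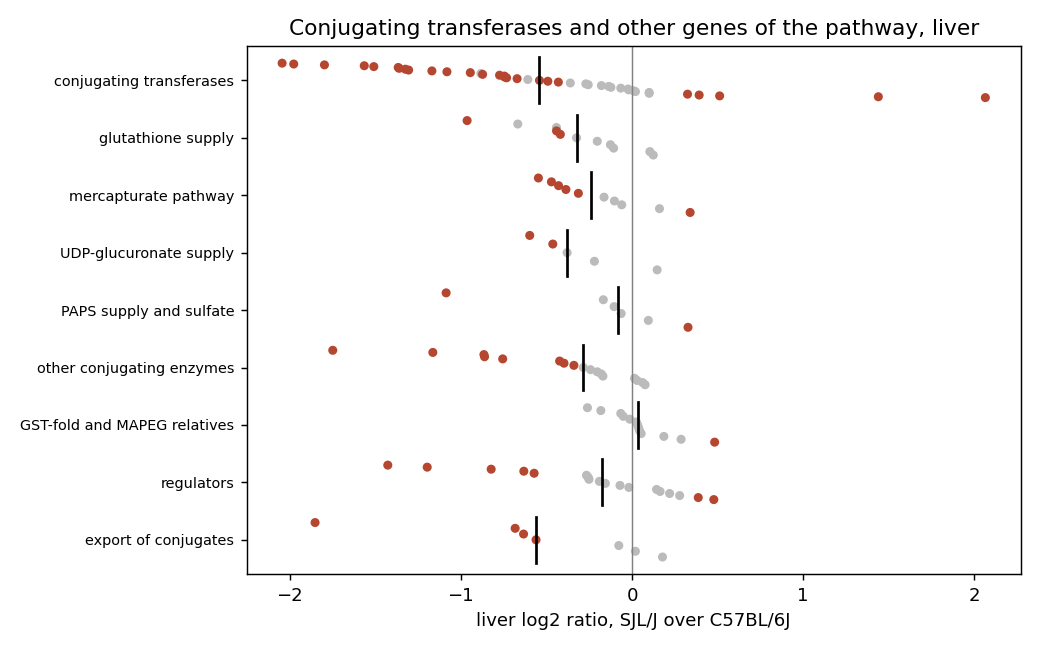
Liver log2 strain ratio (horizontal axis) of the 41 transferase genes and of the genes of 8 related lists, with 1 point per gene and a bar at the median of each list. Red points passed the test and grey points did not. The liver medians are -0.54 for the transferases, -0.56 for the exporters and 0.03 for the relatives outside the group. Differences from kidney and brain are not shown.

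Markers of liver cell types are given beside these results. For comparison, 24.5% of all genes passed in liver (14.4% lower and 10.1% higher). Of 9 general hepatocyte markers 7 were higher and 1 lower in the SJL/J liver pool, from -1.69 for Tdo2 to 1.42 for Mup3 (median 0.78). Of 6 markers of hepatocytes around the central vein, where many conjugating enzymes are made, 4 were lower and 0 higher, with a median of -0.82. They ranged from Oat at -2.58 ± 0.06 to Axin2 at 0.03, with Lgr5 at -1.18 ± 0.56. For liver minus kidney 2 of these 6 were lower and 0 higher (median -0.44), where 19.5% of all genes were called. For liver minus brain 2 were lower and 0 higher (median -0.50), where 11.6% of all genes were called. Of 4 periportal markers 2 were lower and 0 higher, with a median of -0.45, from G6pc at -2.73 ± 0.13 to Cyp2f2 at 0.28. For liver minus kidney 3 of these 4 were lower and 1, Cyp2f2, was higher (median -1.16). For liver minus brain 2 were lower and Cyp2f2 was again higher (median -0.24). Markers of cholangiocytes (0 of 4 passed), of Kupffer cells and macrophages (0 of 5), of stellate cells (1 of 5, lower) and of endothelium (1 of 4, lower) had medians between -0.21 and 0.02. Of 2 erythroid markers Hba-a1 was higher, at 0.83 ± 0.35, and Alas2 was lower, at -1.96 ± 0.35. The part of any of these in the transferase ratios was not tested.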

How the data were processed

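Per the labels, total RNA of 5 males per strain was pooled for each tissue, 20 ug was labelled per channel, and the 3 arrays of a tissue are technical replicates. The deposited values are log2 ratios per spot (the log base is inferred from limma's convention), made by the authors with R 2.0.0 and limma, per the submitters' processing notes. How spots were background-corrected or scaled is not given in the sources used here. All 9 columns hold the same sorted values, from -3.91 to 5.09 (median 0.01), so distributions had been made equal. The direction, SJL/J over C57BL/6J, was inferred from the order in the titles and the usual red over green. In channel 1 the tissue of the kidney and liver arrays is labelled brain, and the titles were followed.

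Of 23040 spots, 16874 carried a single symbol (15096 genes), 134 several and 6032 none here. Probes of a gene were averaged. All 41 gene identifiers matched the RefSeq table of GRCm38.p6, used for names, gene order and promoter windows. In R 4.3.3, with lmFit and eBayes of limma 3.58.1, 1 coefficient per tissue was fitted to 9 arrays with 6 residual degrees of freedom. Means, tissue differences, the moderated F and a ratio shared by 3 tissue means were tested two-sided, with Benjamini-Hochberg adjustment over all genes and a threshold of 0.05. No filter on low values was made. Precision is limited by the number of arrays. Replicate numbers did not pair the arrays (correlations of deviations from -0.08 to 0.05).

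Every gene of the group is named. Values of each array are given for genes that passed with at least 1 log2 unit in a tissue or a tissue difference, and for the 2 with the largest mean of each family. Genes of pathway lists are named where they passed with at least 1 log2 unit in liver, except where stated. The group and the lists were chosen with earlier results of these data known.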

Additional observations from a re-analysis of the deposited data

Results flagged for a closer look

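The strain ratio differed between tissues in 19 of the 41 transferase genes for liver minus kidney and in 17 for liver minus brain, by a test of the difference itself (limma contrasts, adjusted over all genes). Of all genes tested, 19.5% were called for liver minus kidney and 11.6% for liver minus brain. For brain minus kidney 0 of the 41 genes differed, where 5.47% of all genes did. The genes whose difference reached 1 log2 unit are given here. They rest on technical arrays of the same pools, and both sets share the liver arrays.

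For liver minus kidney, the mu class genes Gstm2, Gstm3 and Gstm6 had differences of -2.51 (adjusted p = 7.90e-05), -1.82 (adjusted p = 0.0132) and -1.77 (adjusted p = 0.000610), and Gsta1 had -1.30 (adjusted p = 0.00241). Among the UDP-glycosyltransferases Ugt2b1 had -2.08 (adjusted p = 1.32e-05), Ugt1a6a -1.23 (adjusted p = 0.0438), Ugt2a1 -1.13 (adjusted p = 0.000465) and Ugt8a -1.05 (adjusted p = 0.000738). Of the sulfotransferases, Sult2a8 had -1.21 (adjusted p = 0.0193) and Sult1c2 had 2.86 (adjusted p = 0.00706).

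For liver minus brain, Gsta1 had -1.84 (adjusted p = 0.000340), Gstp1 -1.71 (adjusted p = 0.0432), Gstm2 -1.64 (adjusted p = 0.00152), Gstm6 -1.27 (adjusted p = 0.00541) and Gsta2 -1.21 (adjusted p = 0.0155). Ugt2b1 had -1.64 (adjusted p = 8.33e-05), Ugt2a1 -1.41 (adjusted p = 0.000109), Ugt2b5 -1.14 (adjusted p = 0.00602) and Ugt8a -1.02 (adjusted p = 0.000994). Sult2a8 had -1.07 (adjusted p = 0.0440) and Sult1c2 had 2.02 (adjusted p = 0.0445). The liver minus brain calls of Gstp1, Sult2a8 and Sult1c2 were each lost with 7 of the 9 arrays left out in turn (highest adjusted p = 0.121, 0.146 and 0.123), and the liver minus kidney call of Ugt1a6a with 6 of them (highest adjusted p = 0.117). The liver minus brain call of Gsta2 and the liver minus kidney call of Sult2a8 were each lost with 3 of them (highest adjusted p = 0.0620 and 0.0742). Groups of 3 arrays were not tested for single outlying values.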

How the results depend on the processing

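The direction of no called gene reversed under any alternative. Leaving aside the stricter threshold, 16 of the 26 liver calls (15 lower, and Sult1c2 higher) held in all 9 other settings and with each of the 9 arrays left out, as did 11 of 19 calls for liver minus kidney, 9 of 17 for liver minus brain, 0 of 5 in kidney and 0 of 4 in brain. The causes of the changes below were not tested. With line and column medians removed the liver median was -0.42 and the liver minus brain median -0.17, against -0.01 over all genes in both. In kidney 4 genes were then higher (Gstk1, Gstt2, Ugt2b1 and Ugt8a), where 19.8% of all genes were called in either direction. Fitting only the arrays compared gave 2 genes higher in liver, 5 higher and 7 lower in kidney, 0 lower in brain and 0 higher for liver minus brain. Array weights, 0.31 for brain replicate 3 and 0.73 to 1.52 for the others, gave 6 higher and 7 lower in kidney. They gave 3 lower for brain minus kidney, where 8.71% of all genes were lower. In the main fit, without weights, 27.4% of all genes passed in kidney. The genes higher for liver minus brain numbered 0 with every spot fitted on its own, 1 with a robust prior and 0 with the replicate number as a block. That block moved no other count by over 1.5 times (21 lower in liver, 15 for liver minus kidney), and 1 of 9 arrays correlated best with its own number. At a threshold of 0.01, 1 gene was higher in liver, 0 higher and 9 lower for liver minus brain, 8 lower for liver minus kidney, 1 lower in brain, 1 lower in kidney, and 9 depended on tissue.

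With 1 array left out, medians ranged from -0.54 to -0.44 in liver, -0.09 to -0.03 in kidney, -0.07 to 0.00 in brain, -0.50 to -0.36 for liver minus kidney, -0.40 to -0.32 for liver minus brain and -0.07 to 0.02 for brain minus kidney. Genes lower numbered 18 to 24 in liver, 0 to 6 in kidney (0 without kidney replicate 2 or 3), 1 to 4 in brain (1 without brain replicate 2, and 2 without replicate 1), 9 to 19 for liver minus kidney (9 without kidney replicate 1, and 10 without replicate 2), 11 to 13 for liver minus brain and 0 to 2 for brain minus kidney (2 without brain replicate 3, and 1 without replicate 1). Genes higher numbered 2 to 5 in liver (2 without liver replicate 1 or 2, and 3 without liver replicate 3 or kidney replicate 1), 0 to 2 in kidney (2 without brain replicate 3), 0 in brain and for brain minus kidney, 2 to 3 for liver minus kidney and 0 to 1 for liver minus brain. Genes that depended on tissue numbered 13 to 20 (13 without kidney replicate 2), and 0 had a shared ratio.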
